A study of Mus musculus with 6 samples.

Results

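A set of 7 genes was followed in bone marrow-derived macrophages (BMDMs) of WT and PYK2 KO mice. The table lists 55291 genes. Of the 7, 6 (Rptoros, Wdfy1, Nnt, Ide, Rab4a and Tmem181b-ps) were selected on their own large and uniform difference between the genotypes in these libraries, because such shifts may reflect the substrain from which each line was bred. The seventh, Rptor, was added as the gene on the opposite strand of Rptoros and not for its own values. The levels and fold changes of the first 6 are therefore a description, given with no test, while Rptor was tested. All 7 were among the 9815 genes that passed the filter on low counts, but a gene can pass through its higher genotype alone, as did Rptoros and Tmem181b-ps.

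Macrophages of this kind are grown in culture from marrow progenitors. Each of the 6 libraries came from BMDMs cultured for 7 days with 20% L929-conditioned medium as the source of M-CSF, from 3 WT mice and 3 PYK2 KO mice, all labelled C57BL/6. PYK2 is the tyrosine kinase encoded by Ptk2b, and its knockout was in the whole animal, in a mouse line established in another laboratory. The substrain, litter, age and sex of the mice behind these libraries are not given in the sources used here. The methods name C57BL/6 OlaHsd animals just for breeding controls of a separate, macrophage-specific knockout. Only 1 knockout line was used, so loss of PYK2 and any other inherited difference of that line cannot be told apart. Gene counts hold no sequence variants, so the word strain in the choice of these genes was not tested.

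Inbred mouse colonies that are kept apart collect deletions, duplications and point changes, and a few of them alter the RNA of a gene in every tissue that uses it. Nnt is a well-known case, since C57BL/6J mice carry a deletion of several of its exons that other C57BL/6 colonies lack. A knockout line and its controls may differ at such loci as well as at the targeted gene. In bulk RNA, fewer cells that use a gene and less RNA per cell cannot be told apart.

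The genes lie on 6 chromosomes, none of them chromosome 14, which carries Ptk2b (coordinates are from GENCODE M21 on GRCm38, the same build as mm10). Rptor spans chr11:119602905-119899576 on the plus strand, and Rptoros chr11:119820812-119834365 on the minus strand, wholly inside it. Wdfy1 spans chr1:79702262-79776143, Nnt chr13:119335448-119408997, Ide chr19:37268743-37337852 and Tmem181b-ps chr17:6438524-6467022, all on the minus strand. Rab4a spans chr8:123805985-123835287 on the plus strand. All are annotated as protein coding apart from Rptoros, an antisense RNA, and Tmem181b-ps, a transcribed unprocessed pseudogene. The Nnt symbol covers 2 gene identifiers, so its counts may join both models. Gm20388 overlaps all of Rab4a on the same strand and Gm26848 all of Tmem181b-ps on the opposite strand. Each shares 0 exon bases with that gene, and neither is among the genes counted.

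The start regions of Rptoros and Rptor are shown because the antisense gene differed between the genotypes and the sense gene around it was measured separately. Each runs from 250 bases before to 50 after the start of the gene in RefSeq (GRCm38.p6), 5′ to 3′ on the strand of its own gene, with CG dinucleotides in capitals. The first is chr11:119834316-119834615 on the minus strand and the second chr11:119602655-119602954 on the plus strand.
Rptoros: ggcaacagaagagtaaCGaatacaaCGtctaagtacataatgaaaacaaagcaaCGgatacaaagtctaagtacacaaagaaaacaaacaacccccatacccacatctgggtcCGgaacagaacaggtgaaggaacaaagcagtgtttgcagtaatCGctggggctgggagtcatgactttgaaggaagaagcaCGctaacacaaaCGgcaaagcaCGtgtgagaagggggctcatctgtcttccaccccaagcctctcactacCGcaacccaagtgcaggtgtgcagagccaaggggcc
Rptor: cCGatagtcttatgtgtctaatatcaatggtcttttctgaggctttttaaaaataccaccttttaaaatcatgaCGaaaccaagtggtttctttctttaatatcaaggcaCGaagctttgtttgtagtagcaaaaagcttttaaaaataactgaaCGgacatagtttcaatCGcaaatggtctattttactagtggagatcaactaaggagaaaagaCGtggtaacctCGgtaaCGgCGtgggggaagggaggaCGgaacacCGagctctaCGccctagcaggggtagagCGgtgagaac
The Rptoros start lay 231.5 kb into Rptor, so these are separate starts. The Rptoros region held 9 CG dinucleotides at 49.3% GC, and 56.5% of the 32851 RefSeq start regions held as few or fewer. The Rptor region held 13 at 41.7% GC, and 37.9% of start regions held as many or more. The median of all start regions was 7 CG dinucleotides and 52.7% GC. A few short motifs were searched on both strands. The E-box CACGTG was found 1 time in the Rptoros region and 0 times in that of Rptor, and 7.2% of all start regions held it. The CRE half-site TGACG was found 1 time in the Rptor region and 0 times in that of Rptoros (20.8% of all regions). Both matches include a CG dinucleotide already in capitals. The ETS core GGAA was in both regions (96.0% of all). The TATA box TATAAA (13.6% of all regions), the GC box GGGCGG (35.7%) and the CCAAT box (37.4%) were in neither region. Start regions were matched for 3 of the 7 genes. The third was Ide, which is not shown.

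The exons of Rptoros and Rptor met over 84 bases, the only stretch where a spliced read could belong to either gene. It is shown on the strand of Rptoros, at chr11:119821661-119821744 on the minus strand, in exon 3 of 3 of Rptoros and within the coding sequence of Rptor-201.
Rptoros: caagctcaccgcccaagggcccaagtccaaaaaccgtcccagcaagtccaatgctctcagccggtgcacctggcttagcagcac
On the Rptoros strand this stretch ends 0.8 kb before the 3′ end of Rptoros, and 6 of the 12 Rptor transcripts contain all of it. MARS-seq reads the 3′ end of polyadenylated RNA. The coding transcript Rptor-201 ends 78.6 kb beyond the 3′ end of Rptoros, while Rptor-203, a retained intron transcript, ends 2.4 kb beyond it. Whether counting used strand is not given in the sources used here, so reads of the pair inside their shared span may have been counted on either.

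**Figure D1:**
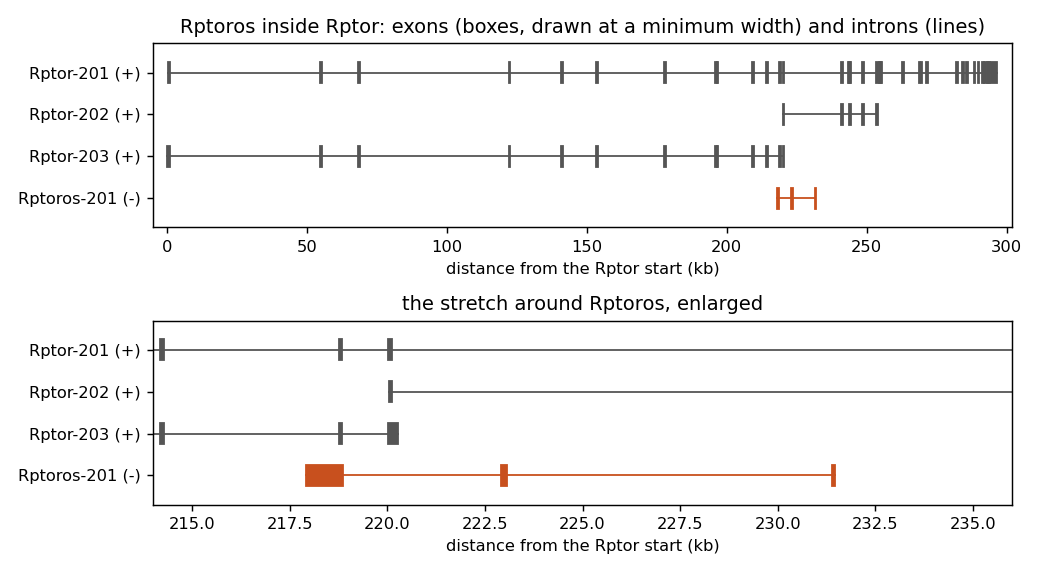
Exons (boxes) and introns (lines) of Rptoros-201, in orange, and of 3 Rptor transcripts, in grey, against the distance in kb from the start of Rptor, with the stretch around Rptoros enlarged in the lower panel. Rptoros starts 231.5 kb and ends 217.9 kb from the start of Rptor, and its exons lie between those of Rptor apart from 84 shared bases.

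The libraries held 2857097 to 3917207 counts. Ptk2b, the targeted gene, was counted 737, 701 and 568 times in WT libraries 1, 5 and 6, against 71, 64 and 69 times in PYK2 KO libraries 2, 3 and 4. All 8 macrophage markers (among them Adgre1, Csf1r and Cd68) passed the filter, and 0 of them differed by the edgeR test described next. Their summed level was 29083 to 29941 CPM in WT, against 30293 to 31432 CPM in PYK2 KO cells. Of the other cell types, Cd79a and Ms4a1 of B cells, Cd3e, Cd3d and Cd8a of T cells, Hba-a1 and Hbb-bs of erythroid cells, Flt3, Zbtb46, Xcr1 and Siglech of dendritic cells and Pdgfra and Dcn of stromal cells were at 0 in every library. Other members of these lists were counted, with 1 tested marker each for B cells and T cells and 0 called. The B cell markers summed to 19.3 to 20.7 CPM in WT, against 13.8 to 23.2 CPM in PYK2 KO cells, and the T cell markers to 4.85 to 9.24 CPM in WT, against 4.47 to 6.1 CPM in PYK2 KO cells. Neutrophil markers summed to 32.8 to 41.1 CPM in WT, against 28.9 to 52.5 CPM in PYK2 KO cells. WT library 1 and PYK2 KO libraries 3 and 4 stood apart in B2m, which had 3803, 3020 and 5102 counts there and 939, 607 and 1631 in WT libraries 5 and 6 and PYK2 KO library 2. Those 3 libraries mix the genotypes. The 6 shifted genes were chosen for genotypes that lie apart, so they could not follow this split across all libraries. Rptor, which was free to, was not higher in those 3 than in all others. Within each genotype Ide was higher and Rab4a lower in them. With each library left out in turn, the log2 fold change of Ide was between 1.10 and 1.18 and that of Rab4a between -1.92 and -1.57.

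Between the genotypes, 25 of 9815 tested genes, or 0.255%, had an adjusted p-value under 0.05 (edgeR quasi-likelihood fit, Benjamini-Hochberg). This count was 159 without the filter on low counts, 62 with the first residual principal component as a covariate, 14 without PYK2 KO library 4 and 15 when WT library 5 or PYK2 KO library 2 was dropped. The 6 shifted genes were among them, which follows from how they were chosen. Rptoros, Wdfy1, Nnt and Rab4a were lower and Ide and Tmem181b-ps were higher in PYK2 KO BMDMs. In all 6 the values of the genotypes did not overlap, as was so for 10.2% of all tested genes. The levels below are counts scaled to a common depth by the TMM method (CPM), with the SD over 3 libraries of a genotype.

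Rptoros, a noncoding antisense RNA, showed the largest fold difference of the 7, over few counts in PYK2 KO. Its interval given below overlaps that of Tmem181b-ps (4.69 to 74.4), so the order of these 2 is uncertain. It had 83, 86 and 72 counts in WT libraries 1, 5 and 6, and 1, 2 and 3 counts in PYK2 KO libraries 2, 3 and 4. Every WT library thus held a clear signal, and every PYK2 KO library was at or under the floor of 3 counts. The level was 23.5 ± 2.08 CPM (SD, n = 3) in WT, against 0.636 ± 0.291 CPM (SD, n = 3) in PYK2 KO BMDMs. The summed counts, 241 and 6, gave a level 36.4 times as high in WT, with an exact 95% interval of 16.5 to 100.04 that covers counting error only. The fitted log2 fold change of -5.11 (SE 0.32) depends on how the fit treats counts this low.

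Rptor encodes Raptor, the scaffold that brings substrates to the kinase mTOR in complex 1 (mTORC1). It was counted 175, 185 and 142 times in WT libraries, against 144, 141 and 143 times in PYK2 KO libraries. After scaling, the genotypes overlapped, with 44.7, 51.8 and 49.8 CPM in WT, against 46.2, 48.8 and 42.6 CPM in PYK2 KO cells. The log2 fold change of -0.09 (SE 0.11, adjusted p = 0.964, edgeR) did not exceed the spread between libraries. The summed counts placed the PYK2 KO level at 0.942 of the WT level, with an exact 95% interval of 0.826 to 1.07, for counting error only.

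Set against its sense partner within each library, Rptoros had 47.4, 46.5 and 50.7 counts per 100 Rptor counts in WT, and 0.7, 1.4 and 2.1 in PYK2 KO BMDMs. This ratio needs no scaling between libraries. It differed between the genotypes while its denominator overlapped. Of the 50-base stretches near the 3′ ends of Rptoros, 4.1% also occur in Rptor on the opposite strand.

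The other genes of the Rptor pathway were counted in the same fit. Of 36 listed genes of mTORC1 and its regulation (subunits, Rag GTPases, Ragulator, the TSC complex, GATOR1, Flcn and Fnip1, sestrins and other upstream regulators, and targets), 35 were tested. The list also holds Rictor and Mapkap1, subunits of the other mTOR complex, and Rictor had its highest log2 fold change, 0.38 (SE 0.33). Rictor had 33, 11 and 14 counts in WT and 19, 22 and 27 in PYK2 KO BMDMs, so this value is imprecise. Of the 35, 0 passed the adjusted threshold in edgeR, DESeq2 or limma voom, and in edgeR 2 were under an unadjusted p-value of 0.05. Over all tested genes these shares were 0.255% and 6.03% in edgeR, so counts this low do not set the list apart. The 2 genes were Rps6kb2, an S6 kinase, at 41.9 ± 3.36 CPM in WT, against 33.8 ± 2.44 CPM in PYK2 KO cells (SD, n = 3 each), and Flcn, a regulator of the Rag GTPases, at 109 ± 8.33 and 92.4 ± 1.01 CPM (SD, n = 3 each). In the list 26 of 35 genes were below 0, beside 4854 of 9815 tested genes, and the median log2 fold change was -0.04, beside 0.002.

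**Figure D2:**
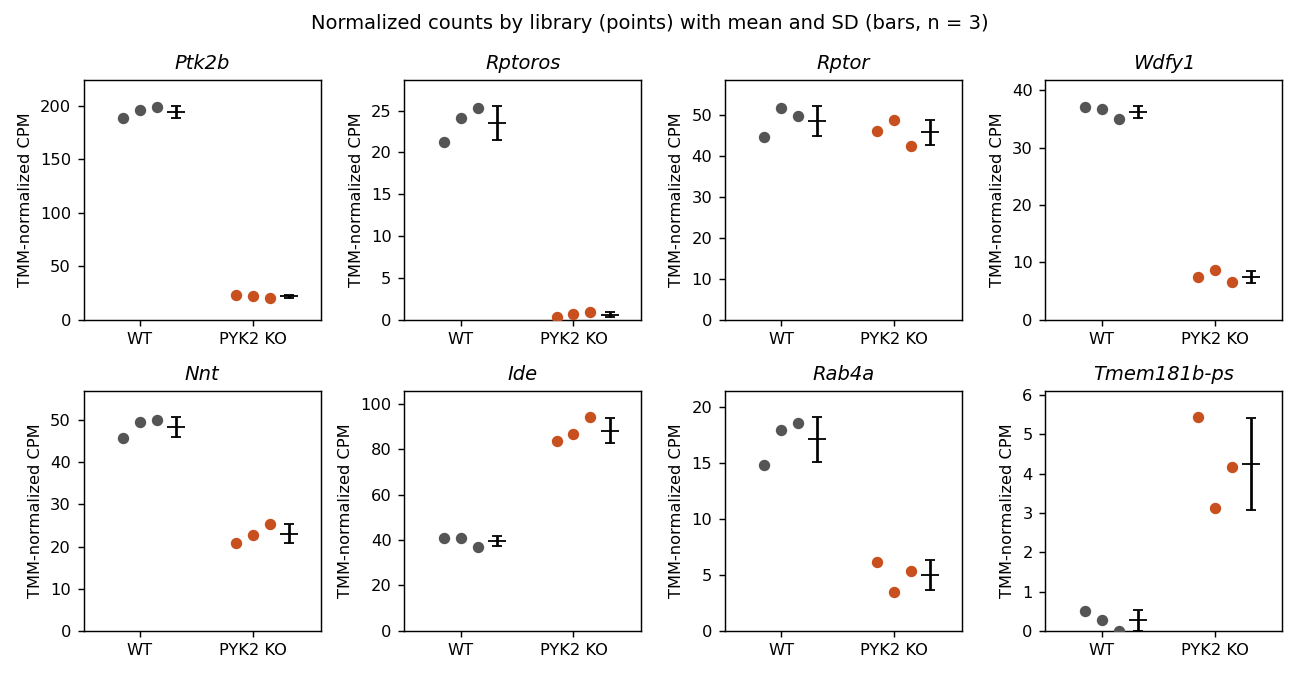
TMM-normalized counts, in CPM (linear axes from 0, a separate scale for each gene) of Ptk2b and the 7 genes in each WT (grey) and PYK2 KO (orange) library, left to right in order of library number, with the mean and SD of 3 libraries in black. The genotypes overlap for Rptor and are apart for the other genes shown, with Rptoros near 0 in PYK2 KO and Tmem181b-ps near 0 in WT.

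Wdfy1 encodes a phosphoinositide-binding protein of early endosomes that links Toll-like receptors TLR3 and TLR4 to the adaptor TRIF. Wdfy1 was counted 145, 131 and 100 times across WT libraries, against 23, 25 and 22 times across PYK2 KO libraries. The lowest WT level was 4.05 times the highest PYK2 KO level. The mean was 36.3 ± 1.05 CPM in WT, against 7.53 ± 1.06 CPM in PYK2 KO cells (SD, n = 3 each), or 20.8% of WT, a log2 fold change of -2.27 (SE 0.17). Unlike Rptoros, Wdfy1 was counted in every PYK2 KO library well above the floor.

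The 5′ end of a Wdfy1 transcript overlaps the 5′ end of Mrpl44, a mitochondrial ribosomal protein gene on the opposite strand, by 126 bases. Mrpl44 had 241, 198 and 169 counts in WT and 191, 152 and 157 in PYK2 KO BMDMs. Its genotypes overlapped (log2 fold change -0.13, SE 0.12, adjusted p = 0.935 in edgeR's quasi-likelihood test). The overlap made up 2.3% of the 50-base stretches in the last 1000 bases of the Wdfy1 transcripts.

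Of 14 genes of the TLR3 and TLR4 adaptor pathway, 12 were tested, and 0 passed in edgeR at either the adjusted threshold or an unadjusted p-value under 0.05, which 0.255% and 6.03% of all tested genes passed. The lowest fold change was that of Ticam2, the bridging adaptor of TLR4, at -0.20 on the log2 scale (SE 0.38), and the highest that of Tlr4 itself, at 0.35 (SE 0.23), which was -0.011 without PYK2 KO library 4. The median was -0.046. TLR3 could not be compared, since Tlr3 had at most 8 counts in a library and did not pass the filter.

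Nnt encodes the transhydrogenase of the inner mitochondrial membrane that makes NADPH from NADH, driven by the proton gradient. It had 179, 177 and 143 counts across WT libraries, against 65, 66 and 85 across PYK2 KO libraries. All PYK2 KO levels were lower, and the nearest libraries of the genotypes were 1.80-fold apart, the narrowest gap of the 6 shifted genes. The mean level was 48.5 ± 2.40 CPM in WT, against 23.0 ± 2.24 CPM in PYK2 KO cells (SD, n = 3 each), or 47.5% of WT, a log2 fold change of -1.07 (SE 0.13). Nnt was thus counted in both genotypes, and neither was near 0. Which exons its RNA held was not tested, since 3′ counts do not cover the gene body.

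Of 19 genes that make mitochondrial NADPH or use it against peroxides, 16 were tested. None passed the adjusted threshold in edgeR, DESeq2 or limma voom (0 of 16), and in edgeR 1 was under an unadjusted p-value of 0.05, beside 0.255% and 6.03% of all tested genes. That gene was Glrx5, a mitochondrial glutaredoxin of iron-sulfur cluster assembly, at 89.5 ± 5.82 CPM in WT, against 75.8 ± 8.90 CPM in PYK2 KO cells (SD, n = 3 each). The median log2 fold change of the list was -0.017.

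Rab4a encodes a small GTPase of early endosomes that directs fast recycling of receptors to the cell surface. It had 58, 64 and 53 counts across WT libraries, against 19, 10 and 18 across PYK2 KO libraries. The lowest WT level was 2.43 times the highest PYK2 KO level. The mean was 17.1 ± 2.01 CPM in WT, against 4.97 ± 1.36 CPM in PYK2 KO cells (SD, n = 3 each), or 29.1% of WT, a log2 fold change of -1.75 (SE 0.24). With as few as 10 counts in a library, its PYK2 KO level was less precise than that of Nnt.

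Among 22 genes of early endosomes and Rab4 recycling, 21 were tested and 0 passed in edgeR at either threshold, beside 0.255% and 6.03% of all tested genes. Their fold changes ran from -0.19 (SE 0.13) for Snx4, a recycling sorting nexin, to 0.40 (SE 0.32) for Rab5a, the GTPase of early endosome fusion, on the log2 scale, with a median of 0.016. Rab4b, the close paralogue of Rab4a, had 2, 3 and 4 counts in WT and 3, 4 and 1 in PYK2 KO BMDMs. These counts are too few to show whether Rab4b differed.

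Ide encodes the insulin-degrading enzyme, a zinc peptidase of the cytosol that cleaves insulin and amyloid-β. It had 161, 146 and 106 counts across WT libraries, against 261, 250 and 317 across PYK2 KO libraries. Every PYK2 KO level was above every WT level, and the nearest libraries were 2.04-fold apart. The mean was 39.7 ± 2.22 CPM in WT, against 88.3 ± 5.57 CPM in PYK2 KO cells (SD, n = 3 each), a ratio of 2.22 and a log2 fold change of 1.15 (SE 0.10). A pseudogene inside Ide on the same strand, Rpl10-ps6, had 0, 1 and 3 counts in WT and 2, 4 and 4 in PYK2 KO BMDMs, far below the counts of Ide.

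Of 16 genes (related peptidases, insulin receptors, their substrates, and App), 12 were tested and 0 passed in edgeR at either threshold, beside 0.255% and 6.03% of all tested genes. The range on the log2 scale was -0.17 (SE 0.16) for Irs2, an insulin receptor substrate, to 0.43 (SE 0.26) for Lnpep, an insulin-regulated aminopeptidase, with a median of 0.023. Nrd1, which encodes nardilysin of the same peptidase family, was at -0.04 (SE 0.09).

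Tmem181b-ps is a pseudogene copy of Tmem181a, which encodes a multipass membrane protein. It had 2, 1 and 0 counts across WT libraries, against 17, 9 and 14 across PYK2 KO libraries. The WT libraries were at or under the floor and the PYK2 KO libraries were all above it. The level was 0.264 ± 0.256 CPM (SD, n = 3) in WT and 4.25 ± 1.17 CPM (SD, n = 3) in PYK2 KO BMDMs. The summed counts, 3 and 40, gave a level 14.7 times as high in PYK2 KO BMDMs, with an exact 95% interval of 4.69 to 74.4 for counting error only. The fitted log2 fold change of 3.72 (SE 0.60) ran from 3.30 to 4.47 over 5 fits with 1 library left out.

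A stretch that the pseudogene and its parent gene share is shown because reads from it cannot be assigned to one of them. The best local alignment of Tmem181b-ps-202 (2426 bases) with the coding sequence of Tmem181a-204 (1545 bases) covered 454 bases with 0 mismatches and 0 gaps. Its first 60 bases, at 1017 to 1076 of the coding sequence and 1654 to 1713 of the pseudogene transcript, were read from the GENCODE M21 transcripts. No letter is in capitals, as none differs.
Tmem181a and Tmem181b-ps: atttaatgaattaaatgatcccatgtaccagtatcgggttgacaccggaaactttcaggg
Near the 3′ ends of Tmem181b-ps, 55.6% of its 50-base stretches also occur in Tmem181a on the same strand, and 27.2% in another copy, Tmem181c-ps, which was at 0 in every library. How the authors' counting treated reads with several matches is not given in the sources used here, so the counts of this family are uncertain.

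The parent gene Tmem181a had 116, 130 and 74 counts in WT and 110, 75 and 96 in PYK2 KO BMDMs. Its genotypes overlapped (log2 fold change -0.04, SE 0.16, adjusted p = 0.994 in edgeR's quasi-likelihood test). Per 100 counts of Tmem181a, the pseudogene had 1.7, 0.8 and 0.0 in WT and 15.5, 12 and 14.6 in PYK2 KO BMDMs. Among the 6 tested paralogues of all these genes, 0 passed in edgeR at either threshold, beside 0.255% and 6.03% of all tested genes. Their fold changes lay between -0.04 for Nrd1 and 0.06 for Wdfy3 on the log2 scale.

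**Figure D3:**
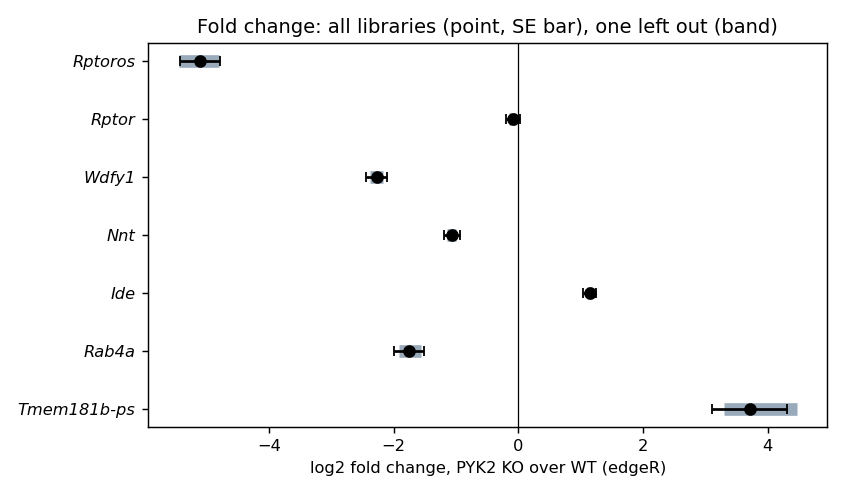
Log2 fold change of PYK2 KO over WT for the 7 genes from the edgeR fit to all 6 libraries (point, with its SE as a bar) and its range with 1 library left out at a time (grey band; 5 fits for Tmem181b-ps and 6 for the others). The values run from -5.11 for Rptoros to 3.72 for Tmem181b-ps around -0.09 for Rptor.

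The 6 shifted genes were chosen partly for a uniform shift, so a small spread within a genotype follows from that choice and is given as a description. If counting were the sole source of spread, the coefficient of variation (CV, the SD over the mean) would be that of a Poisson count. The CV was under that value in both genotypes for 4 of the 7 genes, namely Rptoros, Rptor, Wdfy1 and Nnt, and over it in both for 0 of them. For Wdfy1 it was 2.91% in WT against 8.93% for a Poisson count, and 14.1% against 20.7% in PYK2 KO BMDMs. For Ide it was 5.59% against 8.52% in WT and 6.30% against 6.02% in PYK2 KO BMDMs. With 3 libraries each CV is itself imprecise.

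The genes next to these loci were compared because the choice of genes did not use them. Within 1 Mb of the 6 loci, 105 other genes were tested. Of these, 0 passed the adjusted threshold in edgeR, DESeq2 or limma voom, and in edgeR 10 (9.5%) were under an unadjusted p-value of 0.05, beside 6.03% of all tested genes. Within 5 Mb, 0 of 317 passed and 23 (7.3%) had such a p-value. Without the filter on low counts 3 of the neighbours within 1 Mb passed (Cbr2, Gm22774 and Mir692-1), and without PYK2 KO library 3 just Mir692-1 did.

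At the Rptor locus 3 of 46 neighbours had an unadjusted p-value under 0.05, namely Arl16 (log2 fold change 0.44), Cbr2 (0.38) and Lrrc45 (-0.34). The nearest tested neighbours, Chmp6 and Endov, were at -0.08 (SE 0.10) and -0.30 (SE 0.28). Around Wdfy1 (4 tested), Nnt (5) and Ide (12) there were 0 such genes. Fgfbp3, 0.349 Mb to the left of Ide, just missed this cutoff (unadjusted p = 0.0506, adjusted p = 0.827 in edgeR's quasi-likelihood test). Its log2 fold change, 0.71 (SE 0.34), was in the direction of Ide and the highest of the 105 neighbours within 1 Mb. Kif11 and Cpeb3 beside Ide were at 0.07 (SE 0.16) and 0.02 (SE 0.26) on the log2 scale, Cul3 and Acsl3 beside Wdfy1 at -0.18 (SE 0.14) and 0.27 (SE 0.16), and 4833420G17Rik beside Nnt at 0.04 (SE 0.18).

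Rab4a had 2 such genes among 23 neighbours. Rhou, which encodes a small GTPase, 0.142 Mb to its left, had 13, 14 and 11 counts in WT and 5, 4 and 6 in PYK2 KO BMDMs. Its log2 fold change was -1.18 (SE 0.39, adjusted p = 0.558 in edgeR's quasi-likelihood test), in the direction of Rab4a and without overlap between genotypes, but not past the threshold. Acsf3, 0.988 Mb away, was at -0.42 (SE 0.20), and Ccsap, the nearest gene on the right, at -0.30 (SE 0.23).

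Tmem181b-ps had 5 such genes among 15 neighbours (33.3%), the highest share of the 6 loci, on few genes. Tulp4, Gm22774 and Rnaset2b had log2 fold changes of 0.32, 0.53 and 0.30, and Mir692-1 and Tmem242 of -0.62 and -0.22. Dynlt1f, the nearest tested gene on the right, was at 0.17 (SE 0.23). Gm22774 and Mir692-1 are annotated small RNA genes, and Rnaset2b has a near-identical copy, so their counts are uncertain. Mir692-1 was counted 15526, 15749 and 10927 times in WT and 6792, 11457 and 6069 times in PYK2 KO BMDMs.

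**Figure D4:**
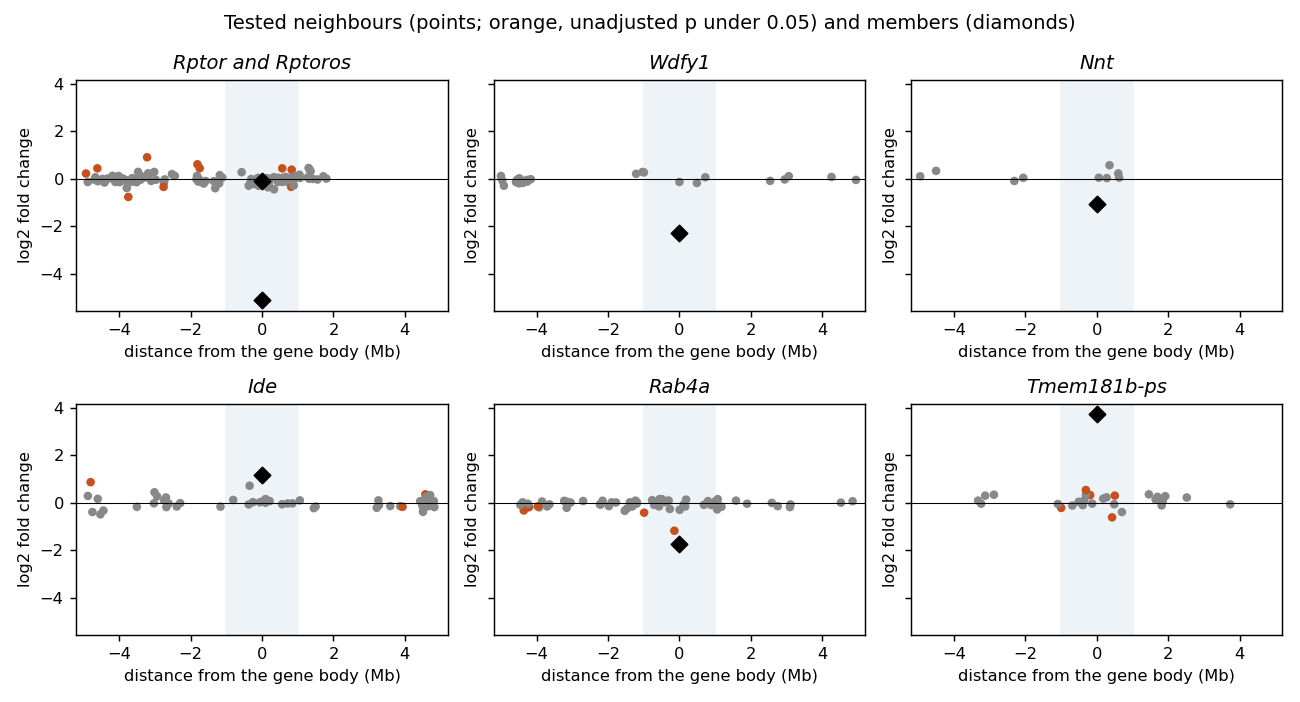
Log2 fold change of PYK2 KO over WT for tested genes within 5 Mb of each locus (grey points, or orange where the unadjusted p-value was under 0.05) against their distance in Mb from the gene body (negative to the left, toward lower coordinates), with the genes of the locus as diamonds at 0. The shaded band marks 1 Mb on each side, where 0 of 105 neighbours passed the adjusted threshold.

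A list of 8 other genes known to vary among C57BL/6 substrains was looked up. Only Cyfip2 and Dock2 passed the filter, and 0 of these 2 passed in edgeR at either threshold, beside 0.255% and 6.03% of all tested genes. A count over 2 genes says nothing about the list. Cyfip2, an actin regulator, was at 78.1 ± 9.64 CPM in WT, against 88.2 ± 3.37 CPM in PYK2 KO cells, and Dock2, a Rac activator of leukocytes, at 211 ± 4.49 and 203.3 ± 10.6 CPM (SD, n = 3 each). A coding change in such a gene need not alter its counts. Crb1, Nlrp12, Mmrn1, Entpd4 and Entpd4b were at 0 in every library. A count of 0 still allows a true level with an expected count of up to 3 in a library. How reads with several matches were counted is not known, so a 0 need not mean absent RNA.

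Over all lists, 102 different genes were tested and 0 passed the adjusted threshold in edgeR, DESeq2 or limma voom, beside 0.255% of all tested genes in edgeR, while 3 had an unadjusted p-value under 0.05 in edgeR, beside 6.03% of all tested genes. In 8 of the 102 the genotypes did not overlap, beside 10.2% of all tested genes. The fold changes of the 102 genes ran from -0.36 for Fnip1, a partner of Flcn, to 0.43 for Lnpep on the log2 scale.

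**Figure D5:**
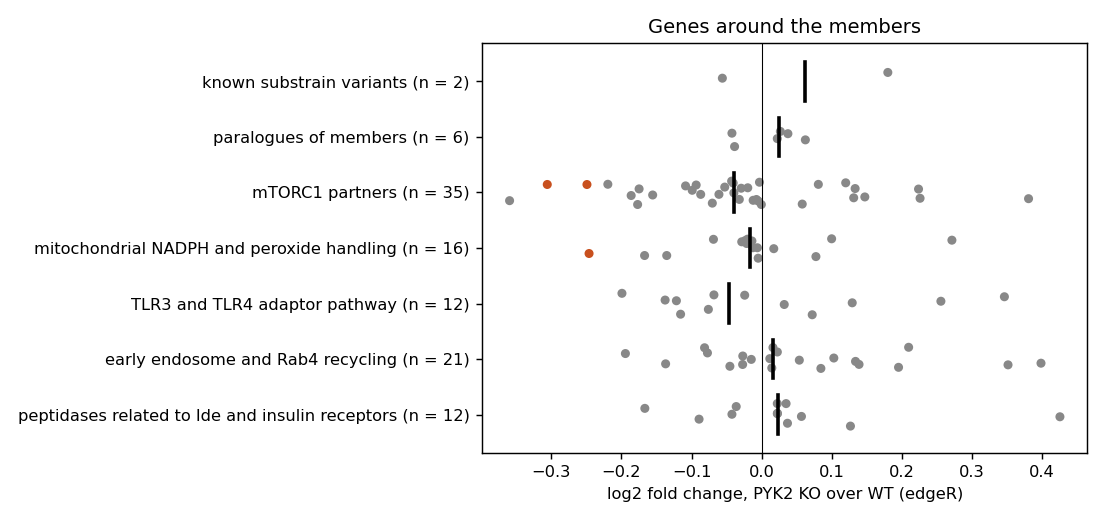
Log2 fold change of PYK2 KO over WT of each tested gene in 7 lists of genes related to the shifted genes and Rptor (points; orange where the unadjusted p-value was under 0.05; vertical spread for legibility), with the median of each list as a black bar and its number of tested genes. The medians lie between -0.046 and 0.062.

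The tested genes outside these 7 whose levels followed each shifted gene most closely were found by the root-mean-square difference of mean-centred log2 profiles over the 6 libraries, with 0.5 CPM added. For Wdfy1 these were the targeted gene Ptk2b (0.473) and Sap18b (0.512), and for Rptoros the same 2 at 0.706 and 1.52. Nnt was followed by Rhou (0.0919) and Dusp5 (0.160), and Rab4a by Rhou (0.392) and Spats2 (0.406). Rhou and Dusp5 had at most 14 counts in a library, so their place beside Nnt rests on few counts. Ide was followed by Lima1 (0.122), which had 171, 170 and 115 counts in WT and 253, 226 and 305 in PYK2 KO BMDMs, and by Saa3 (0.124). Tmem181b-ps was followed by the pseudogenes Gm4824 (0.646) and Eif4a-ps4 (0.709). These likenesses are a description over 6 libraries, which share the contrast that chose the genes.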

How the data were processed

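BMDM RNA of 3 WT mice and 3 PYK2 KO mice was sequenced by bulk MARS-seq. Using the UTAP pipeline, the authors mapped reads and produced the matrix, which was deposited as raw whole-number counts per gene. The submitters' processing notes name cutadapt, STAR and mm10. Strand setting, annotation release and treatment of molecular identifiers are not given in the sources used here, so intervals cover counting error only. P-values measure the spread between these libraries. The 6 columns were matched to samples by title, and 0 columns belonged to other samples.

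The test was the quasi-likelihood F test of edgeR 4.0.16 (R 4.3.3) for genotype, after TMM scaling and the filterByExpr filter, with p-values adjusted by the Benjamini-Hochberg method and a threshold of 0.05. Of 55291 genes, 18659 had a count and 9815 were tested. SE was taken from the fold change and F statistic. The script was tested on simulated data. Alternatives were DESeq2 1.42.0, limma 3.58.1 voom, other scalings and filters, a residual principal component, and leaving out each library. Intervals of summed count ratios are exact (Clopper-Pearson, 95%). Shared 3′ sequence was searched as 50-base stretches in the last 1000 bases of each transcript. Positions were matched to GENCODE M21 by symbol for 99.0% of tested genes.

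The genes and lists were chosen with earlier results of these data known. Named were the 7 genes and Ptk2b, overlapping genes and near copies, in each list the genes with an unadjusted p-value under 0.05 or otherwise its lowest and highest fold change, the nearest tested neighbours and those within 1 Mb with an unadjusted p-value under 0.05, and the 2 closest profiles outside the 7 genes. Rictor, Mapkap1 and Fnip1 of the mTORC1 list were named in addition to this rule. B2m, Tlr3, Fgfbp3 and the substrain genes at 0 were named after their values were seen. A few genes of the lists are not reported here.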

Additional observations from a re-analysis of the deposited data

How the results depend on the processing

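No paired analysis was possible because no library number occurs in both genotypes (1, 5 and 6 in WT, 2, 3 and 4 in PYK2 KO). Rptor stayed negative and short of the threshold in all 14 alternatives, from -0.09 to -0.08 on the log2 scale under other settings and from -0.15 to -0.04 with 1 library left out. Rptoros ran from -5.21 to -4.95 and from -5.45 to -4.81, Wdfy1 from -2.28 to -2.26 and from -2.38 to -2.18, Nnt from -1.07 to -1.06 and from -1.15 to -1.0, Rab4a from -1.78 to -1.75 and from -1.92 to -1.57, Ide from 1.14 to 1.16 and from 1.10 to 1.18, and Tmem181b-ps from 3.59 to 4.01 and from 3.30 to 4.47. Tmem181b-ps missed the filter without PYK2 KO library 4, and with at least 10 counts in every library neither it nor Rptoros was fitted.

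The number of genes past the threshold was 25. It was 159 without a filter and 62 with the first residual principal component as a covariate, 22 in DESeq2 and 20 in limma voom, and from 14 (without PYK2 KO library 4) to 34 (without WT library 1) with 1 library left out, with 15 when WT library 5 was dropped and 15 when PYK2 KO library 2 was. The number of neighbours past it was 3 without a filter (Cbr2, Gm22774 and Mir692-1) and from 0 to 1 with 1 library left out (Mir692-1, when PYK2 KO library 3 was dropped). For these counts the cause was not tested. It was 0 in the remaining settings, as was the number of list genes in all settings run.

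Of 670 values of 52 single genes, 636 kept their direction and side of the threshold, 8 were weaker, 10 stronger, 3 moved and 13 reversed, all 13 near 0 with 1 library left out. With 1 library left out, Cpeb3 ran from -0.14 to 0.23, Kif11 from -0.053 to 0.15, Tmem181a from -0.17 to 0.10, 4833420G17Rik from -0.10 to 0.14, Dynlt1f from -0.029 to 0.34, Chmp6 from -0.15 to 0.0092, Tlr4 from -0.011 to 0.52 and Wdfy3 from -0.010 to 0.15.

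The depth limits Rptoros in PYK2 KO and Tmem181b-ps in WT, where 0 to 3 counts in a library leave the level and the fold imprecise, and Rab4a, with as few as 10.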
